A study of Mus musculus with 15 samples.

Results

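Hk1, Hk2, Gpi1, Pfkp, Aldoa, Aldoc, Gapdh, Pgk1, Pkm and Ldha encode enzymes of glycolysis and of the lactate step that follows it. These 10 genes, of 27803 genes counted in the series, were taken by name, and each had a row in the table of every one of the 15 mice. Drop-seq was used to count transcripts in single cells of 5 WT cerebella at P7, 5 vehicle-treated and 5 vismodegib-treated M-Smo medulloblastomas. WT cerebella came from untreated C57BL/6 mice. M-Smo mice (Math1-Cre:SmoM2/EYFPloxP/loxP, strain C57BL/6) carry Cre recombinase under the Math1 promoter and a Cre-dependent, constitutively active SmoM2 fused to EYFP, and vehicle- and vismodegib-treated mice carry the same alleles. The Math1 promoter restricts Cre to the lineage of cerebellar granule neuron progenitors (CGNPs) and other Math1-expressing cells, and which cells of these tumors carry the recombined allele was not analysed here. Vismodegib, an inhibitor of SMO, was given at 75 mg per kg in 3 daily doses from P12 to P14, and all tumors were collected at P15. Droplets were made in PDMS chips for WT and in glass chips for tumors. Tumor runs alone held spiked-in human cells, were sorted by species on a mixed mouse and human reference and were then aligned again. Genotype, age, vehicle injection, capture chip, spike-in and alignment therefore differ together between WT and vehicle-treated samples. Their parts in any difference between these groups cannot be told apart.

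Glycolysis converts glucose to pyruvate in the cytosol, and lactate dehydrogenase can reduce the pyruvate to lactate. Several steps are served by isozymes from separate genes, whose balance differs between cell types. Hexokinase 1 (Hk1) is the main hexokinase of the brain, while hexokinase 2 (Hk2) is known from muscle and from proliferating and tumor cells, and SHH signaling is known to induce Hk2 in CGNPs. Aldolase C (Aldoc) is the brain aldolase, found in astrocytes and in bands of Purkinje cells, while aldolase A (Aldoa) is made in most tissues.

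The start of Hk2 and of Ldha is shown because levels of Hk2 and Ldha moved in opposite directions between WT cerebella and tumors in the data described here. Each sequence runs 5′ to 3′ from 250 bases before to 50 bases after a RefSeq transcript start (GRCm38.p6), and capitals mark ACGTG or its reverse complement CACGT, the core letters of the element bound by hypoxia-inducible factors. Hk2 starts on chromosome 6, minus strand, and the window is chr6:82774405-82774704. Ldha starts on chromosome 7, plus strand, and the window is chr7:46845554-46845853.
Hk2: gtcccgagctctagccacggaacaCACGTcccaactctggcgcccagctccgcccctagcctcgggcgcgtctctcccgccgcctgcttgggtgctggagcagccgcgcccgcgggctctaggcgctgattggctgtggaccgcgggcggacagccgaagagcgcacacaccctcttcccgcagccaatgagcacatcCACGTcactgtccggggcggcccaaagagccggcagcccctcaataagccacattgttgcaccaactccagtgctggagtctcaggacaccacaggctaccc
Ldha: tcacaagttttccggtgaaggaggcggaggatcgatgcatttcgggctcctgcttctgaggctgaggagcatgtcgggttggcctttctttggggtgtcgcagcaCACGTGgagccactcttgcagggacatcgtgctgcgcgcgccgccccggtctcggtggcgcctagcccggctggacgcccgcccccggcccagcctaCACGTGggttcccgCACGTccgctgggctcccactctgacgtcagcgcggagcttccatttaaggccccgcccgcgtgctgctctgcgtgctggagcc
In the Hk2 window ACGTG was found 2 times when both strands were read, and in the Ldha window 5 times, of which 4 belong to 2 copies of the palindrome CACGTG read on both strands. Of 16 listed promoter windows of the 10 genes, 9 held ACGTG on either strand, beside 19.6% of 32851 mouse promoter windows of the same length. These 9 windows belong to 8 of the genes, and the Aldoa windows among them overlap and hold the same match. GACCACCCA, the consensus of GLI factors, was in 0 of the members' windows and in 0.3% of all windows. CACGTG itself stood in 7.2% of all windows. GCGTG, another form of that core, was found 0 times in the Hk2 window and 2 times in the Ldha window shown. It stood in 32.4% of all windows. A second listed Ldha window held ACGTG 0 times. These are matches of letters, and the series holds no measurement of factor binding.

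After filtering, 37946 of 51841 barcodes were kept (7224 WT, 18293 vehicle, 12429 vismodegib), with a median of 1082.5 to 2597 UMIs per cell in each animal. WT and tumor cells were clustered separately, with the 10 genes held out, and clusters were named from marker lists. CGNP-like cells made up 33288 of the kept cells (87.72%) and were split along differentiation into Node A-like (mitotic genes such as Mki67 and Top2a), Node B-like (Gli1, Ptch1, Atoh1 and replication genes), Node C-like (Cntn2, Neurod1 and other early differentiation genes) and Node D-like cells (Grin2b, Rbfox3 and other genes of maturing granule neurons). One Node D-like tumor cluster of 1597 cells and 1 Node B-like WT cluster of 942 cells were led by hemoglobin genes. All Node D-like cells of WT were 1 cluster of 854 cells led by Calb2, Grp and Syt4, with Eomes, a gene of unipolar brush cells, also among its 10 leading genes, and 1 Node D-like tumor cluster of 1765 cells was led by Calb2 and Pcp4. The naming rule as first written, which kept unipolar brush markers apart, named this WT cluster unipolar brush-like and this tumor cluster neuron-like, so Node D-like values of WT rest on the changed rule. It also named both hemoglobin-led clusters red blood-like. Node B-like values of WT, with 942 of 1760 cells in such a cluster, and Node D-like values of tumors therefore rest on the changed rule in part. At most 13 barcodes were shared by any of 105 pairs of libraries. A level in CPM is the number of UMIs of a gene per 1e6 UMIs in the cells of a class and animal, and tests used edgeR's quasi-likelihood test on UMIs summed per animal, with p-values adjusted by Benjamini-Hochberg over all tested genes and a threshold of 0.05. The study's methods describe the injected M-Smo mice as littermates, assigned at random to vehicle or vismodegib with both sexes in equal numbers. Which of these animals shared a litter is not stated, so n counts mice. The Hedgehog target list served as a check of the treatment. In CGNP-like cells 4 of 6 tested targets fell with vismodegib, beside 4.65% of all tested genes. Within stages 2 of 6 fell in Node A-like, 3 of 6 in Node B-like and 1 of 4 in Node C-like cells. In these stages 2.01%, 3.65% and 1.66% of all tested genes were called in either direction. Gli1, Ptch1 and Sfrp1 are also markers of Node B-like cells, and the targets were not held out of clustering. The pooled count is therefore not free of the mix of stages. The largest change in pooled cells was that of Hhip at -2.69 on the log2 scale (edgeR, adjusted p = 2.19e-05), while Gli1 differed by -0.47 (SE 0.32, edgeR, adjusted p = 0.388).

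Hk2 carried the widest difference of the 10 genes between tumors and WT cerebella. In CGNP-like cells its level was 19.0, 5.81, 6.63, 9.47 and 5.31 CPM in WT replicates 1 to 5. In vehicle-treated tumors it was 156.7, 102.4, 197.8, 84.6 and 101.3 CPM in replicates 1 to 5. Every vehicle-treated tumor stood above every WT cerebellum, and Hk2 rose by 3.55 on the log2 scale (SE 0.32, 11.7-fold, edgeR, adjusted p = 1.33e-06, n = 5 per group). Hk2 lies on chromosome 6 of GRCm38 (chr6:82725025-82774454, minus strand).

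Hk1, which catalyzes the same step, was lower in the vehicle-treated tumors. Its level was 28.4, 33.4, 33.2, 26.5 and 23.0 CPM in WT replicates 1 to 5 and 8.80, 11.9, 15.7, 18.9 and 8.20 CPM in vehicle replicates 1 to 5. The groups did not overlap, and Hk1 fell by 1.28 on the log2 scale (SE 0.26, edgeR, adjusted p = 0.000972). Hk1 lies at chr10:62268855-62379908 on the minus strand.

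Ldha, the lactate dehydrogenase subunit that favors lactate production, had 282.3, 311.5, 281.3, 188.7 and 229.3 CPM in WT replicates 1 to 5. Its level in vehicle-treated replicates 1 to 5 was 144.2, 141.2, 132.4, 103.0 and 155.8 CPM. Every WT cerebellum stood above every vehicle-treated tumor, and Ldha fell by 1.02 on the log2 scale (SE 0.15, 2.03-fold, edgeR, adjusted p = 7.05e-05). Gpi1, the isomerase that follows hexokinase, ranged from 83.3 to 125.6 CPM in WT and from 64.3 to 81.2 CPM in vehicle-treated samples, again without overlap. Gpi1 fell by 0.65 on the log2 scale (SE 0.13, edgeR, adjusted p = 0.000943).

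Gapdh and Pgk1, which follow aldolase in the pathway, also fell, but their rows held few UMIs. Gapdh was at 5.92 to 21.6 CPM in WT and 2.82 to 7.09 CPM in vehicle-treated samples (log2 -1.32, SE 0.37, edgeR, adjusted p = 0.0091), and without WT replicate 4 the adjusted p of the edgeR fit was 0.0691. Pgk1 was at 8.41 to 55.9 CPM in WT and 8.46 to 17.8 CPM in vehicle-treated samples (log2 -1.07, SE 0.40, edgeR, adjusted p = 0.0415). The Pgk1 call was lost in 6 of 10 fits that left out 1 animal (WT 3 and 4, vehicle 1 to 4), with an adjusted p of up to 0.209 in edgeR and a log2 difference of -0.51 at the smallest, and with hemoglobin-led clusters left out (edgeR, adjusted p = 0.0611).

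The Gapdh row is uncertain for a reason of sequence. Of 451 windows of 50 bases in the last 500 bases of the Gapdh transcript, 90.5% were shared word for word with transcripts of 138 other genes, mostly processed copies. The Gapdh row held 450 UMIs in the kept cells of all 15 animals, against 12644 UMIs in the rows of these copies. Summed over these copies, without the Gapdh row itself, CGNP-like cells had 380.9 ± 105.6 CPM in WT, 105.0 ± 43.4 CPM in vehicle-treated and 89.6 ± 57.5 CPM in vismodegib-treated samples (SD, n = 5 each). With these rows added to its own, Gapdh fell by 1.93 on the log2 scale between WT and vehicle-treated samples (edgeR, adjusted p = 4.13e-05). Whether reads were assigned to Gapdh and its copies alike in WT and tumor samples was not tested. This sum therefore does not give the level of Gapdh alone. Pgk1 shared 7.3% of its windows, Gpi1 4.2% and Aldoa 3.3%, and the other 6 genes shared 0.0%.

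Of the 10 genes, 1 rose and 5 fell between WT and vehicle-treated CGNP-like cells, beside 21.3% of 12588 tested genes that rose and 23.3% that fell. The remaining 4 did not pass the test. Pkm, which makes pyruvate, differed by -0.28 (SE 0.14), Aldoa by -0.28 (SE 0.17), Pfkp, the platelet-type phosphofructokinase, by -0.41 (SE 0.27) and Aldoc by 0.17 (SE 0.44), all on the log2 scale. The median log2 difference was -0.53 over the 10 genes and 0.05 over all tested genes. DESeq2, which tested 18018 genes with low counts included, had a median of -0.46 over all genes and called the same 6 members in the same directions. Genes of dissociation and stress differed between these groups as well. Their summed level was 398.1 to 673.9 CPM in WT and 2369 to 3384 CPM in vehicle-treated CGNP-like cells, 8 of 8 tested genes of that list rose, and the part of this difference in the members' values was not tested. The median mitochondrial share of kept cells was 2.777 to 4.84% in WT animals and 1.694 to 2.521% in vehicle-treated animals, and its part was not tested either.

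**Figure D1:**
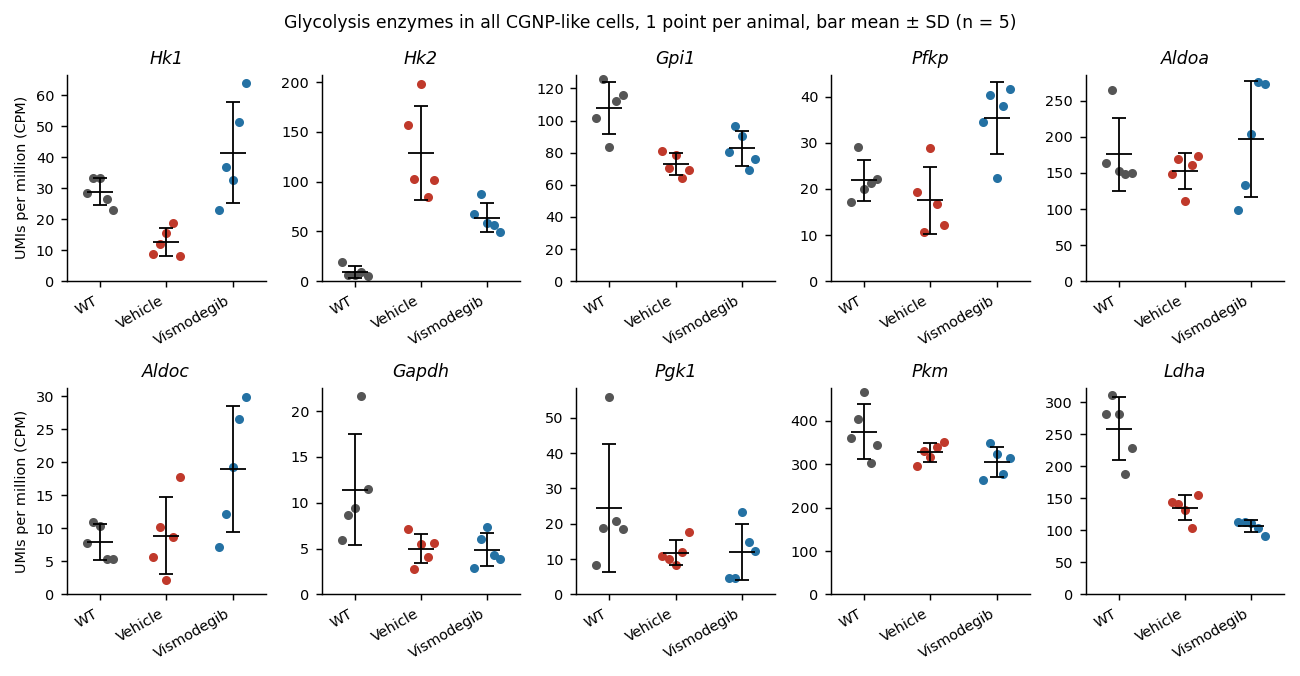
Level of each of the 10 genes in all CGNP-like cells in CPM (vertical axis, 1 scale per gene) for WT, vehicle-treated and vismodegib-treated animals, with 1 point per animal and bars at the mean ± SD (n = 5 per group). Hk2 stands at 84.6 CPM or more in every vehicle-treated tumor and at 19.0 CPM or less in every WT cerebellum, while Ldha and Gpi1 stand lower in every vehicle-treated tumor than in any WT cerebellum.

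Vismodegib was associated with a shift from Hk2 toward Hk1 in the tumors. Hk1 was at 22.8, 36.7, 32.5, 51.3 and 63.9 CPM in vismodegib replicates 1 to 5, so that every vismodegib-treated tumor exceeded every vehicle-treated tumor. Hk1 rose by 1.75 on the log2 scale (SE 0.31, 3.36-fold, edgeR, adjusted p = 0.00244). Hk2 was at 67.9, 87.3, 58.6, 56.4 and 49.1 CPM in vismodegib replicates 1 to 5, with only replicate 2 above the lowest vehicle-treated tumor. Hk2 fell by 1.00 on the log2 scale (SE 0.22, 2.0-fold, edgeR, adjusted p = 0.00912), and its level in vismodegib-treated tumors remained above that of every WT cerebellum.

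Pfkp, at chr13:6579768-6648777 on the minus strand, had 34.6, 40.5, 22.4, 38.1 and 41.6 CPM in vismodegib replicates 1 to 5. In vehicle replicates 1 to 5 it had 19.3, 10.6, 28.9, 16.8 and 12.1 CPM, and the groups overlapped through vehicle replicate 3 and vismodegib replicate 3. Pfkp rose by 1.05 on the log2 scale (SE 0.27, edgeR, adjusted p = 0.0178). This call was lost without vehicle replicate 5 (edgeR, adjusted p = 0.0503). It was also lost under the naming rule as first written, which took both the hemoglobin-led and the Calb2-led clusters out of the CGNP-like cells (log2 0.66, edgeR, adjusted p = 0.181), and where Hk1 still rose by 1.34 (edgeR, adjusted p = 0.00699). With hemoglobin-led clusters alone left out, Pfkp rose by 1.09 (edgeR, adjusted p = 0.018). At a resolution of 1.2 it rose by 1.06 (edgeR, adjusted p = 0.0155), and with Calb2-led clusters left out at that resolution it differed by 0.66 (edgeR, adjusted p = 0.166).

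Between vehicle- and vismodegib-treated CGNP-like cells, 2 of the 10 genes rose, beside 8.4% of 12431 tested genes, and 1 fell, beside 4.65%. The other 7 did not pass the test. Ldha was at 91.8 to 113.3 CPM in vismodegib-treated tumors, and only vehicle replicate 4, at 103.0 CPM, reached into that range (log2 -0.34, SE 0.13, edgeR, adjusted p = 0.0966), while DESeq2 called Ldha (log2 -0.37, adjusted p = 0.0457). Aldoc ranged from 7.12 to 29.9 CPM with vismodegib and from 2.24 to 17.8 CPM with vehicle (log2 1.08, SE 0.46, edgeR, adjusted p = 0.161). With the library-number sets described next as a covariate Aldoc passed the threshold (log2 1.05, edgeR, adjusted p = 0.0435). Log2 differences of Gpi1 (0.19), Aldoa (0.39), Gapdh (-0.04), Pgk1 (0.02) and Pkm (-0.10) were all under 2 times their SE. The summed level of dissociation and stress genes was 1171 to 2719 CPM with vismodegib, and 1 of 8 tested genes of that list fell (Fos, log2 -0.85, edgeR, adjusted p = 0.0495). The vehicle-treated animals are shared by this comparison and the comparison with WT.

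Library numbers in the labels were used here to divide the tumors into those numbered up to 10 (vehicle 1 to 3, vismodegib 1 to 3) and those numbered from 12 (replicates 4 and 5 of each group). Hk2 did not overlap between treatments within either set, with 102.4 to 197.8 against 58.6 to 87.3 CPM in the earlier numbers and 84.6 to 101.3 against 49.1 to 56.4 CPM in the later. Hk1 did not overlap either, with 8.80 to 15.7 against 22.8 to 36.7 CPM and 8.20 to 18.9 against 51.3 to 63.9 CPM. Pfkp overlapped in the earlier set. Other members did not overlap in 1 of the sets, namely Pfkp, Aldoa, Aldoc and Pkm in the later set and Ldha in the earlier set. With 3 and 2 animals per group in these sets, ranges part easily. The share of all genes without overlap was not determined.

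**Figure D2:**
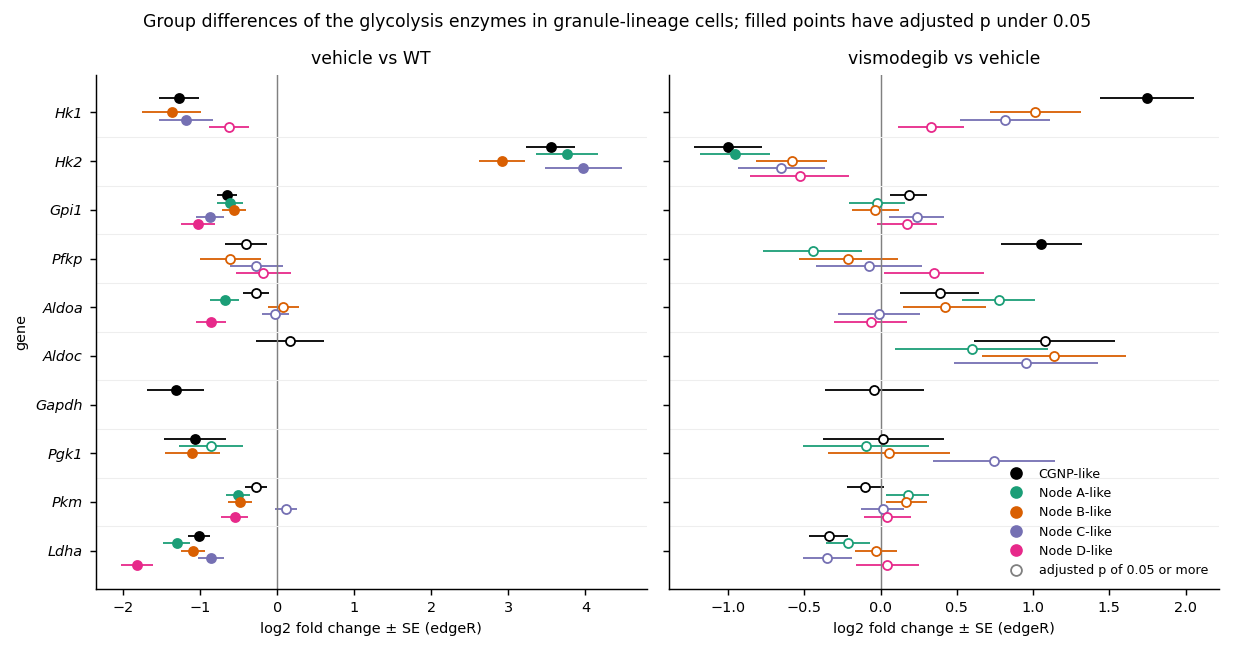
Log2 fold change ± SE (horizontal axis, edgeR) of each gene in all CGNP-like cells and in the 4 stages, for vehicle against WT (left) and vismodegib against vehicle (right). Filled points have an adjusted p under 0.05, open points do not, and genes below the count filter in a class have no point. Hk2 lies far to the right in vehicle against WT and to the left in vismodegib against vehicle, while Ldha is filled and left of 0 in every class of the left panel.

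The 4 stages were present in different shares in the 3 groups, which touches every value of the pooled CGNP-like cells. Node D-like cells made up 17.0 ± 3.77% of CGNP-like cells in WT, 9.58 ± 2.33% in vehicle-treated and 38.6 ± 14.7% in vismodegib-treated samples (SD, n = 5). Node A-like cells made up 16.0, 17.4 and 10.6% on average, and Node B-like cells 35.8, 43.6 and 23.4%. The members were therefore also read within each stage, and differences between stages are given as a description without a test.

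Hk1 was low in Node A-like and high in Node D-like cells. In vehicle-treated tumors its mean level was 4.12, 6.66, 13.5 and 84.4 CPM from the earliest to the latest stage. Node D-like cells exceeded Node A-like cells in 5 of 5 animals of each group, with means of 127 against 9.51 CPM in WT and 102 against 6.34 CPM in vismodegib-treated samples. Pfkp followed the same course, from 10.1 to 79.5 CPM in vehicle-treated tumors, from 7.54 to 73.9 CPM in WT and from 7.503 to 100.1 CPM in vismodegib-treated tumors, again higher in Node D-like cells of 5 of 5 animals in each group.

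Hk2 ran the other way in the tumors. Its mean over the same order of stages was 181.5, 141.9, 68.2 and 52.5 CPM in vehicle-treated and 93.0, 92.7, 42.4 and 34.7 CPM in vismodegib-treated tumors. It was lower in Node D-like than in Node A-like cells of 5 of 5 animals in both groups. In WT cerebella Hk2 had its highest mean in Node B-like cells, at 16.4 ± 5.21 CPM, and was at 2.67 and 4.62 CPM in Node C-like and Node D-like cells. It stood above Node A-like cells in 5 of 5 animals, but by only 0.024 on the log2 scale at the smallest. These WT levels rest on few UMIs of Hk2. Replicates 1 to 5 had 15, 5, 7, 11 and 5 in Node B-like cells. Replicates 1, 2, 4 and 5 had 39, 1, 7 and 1 in Node A-like cells.

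Aldoa was higher in more differentiated cells and Pkm lower. Aldoa means went from 100 to 421 CPM between Node A-like and Node D-like cells of WT, from 65.7 to 248 CPM with vehicle and from 109 to 229 CPM with vismodegib, in the same direction in 5 of 5 animals of each group. In both tumor groups this difference was already present in Node C-like cells, at 254 CPM with vehicle and 248 CPM with vismodegib. Pkm was highest in Node B-like cells (483, 389 and 433 CPM in WT, vehicle and vismodegib) and lower in Node D-like than Node A-like cells in 5 of 5 animals of each group. Ldha was likewise highest in Node B-like cells of each group, at 336, 175.5 and 170 CPM. Gpi1 was higher in Node D-like than in Node A-like cells in 5 of 5 animals of each group, by 1.07, 0.62 and 0.83 on the log2 scale in WT, vehicle and vismodegib. Aldoc, Gapdh and Pgk1 had 27 CPM or less on average in every stage and no direction shared by all animals of all groups.

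**Figure D3:**
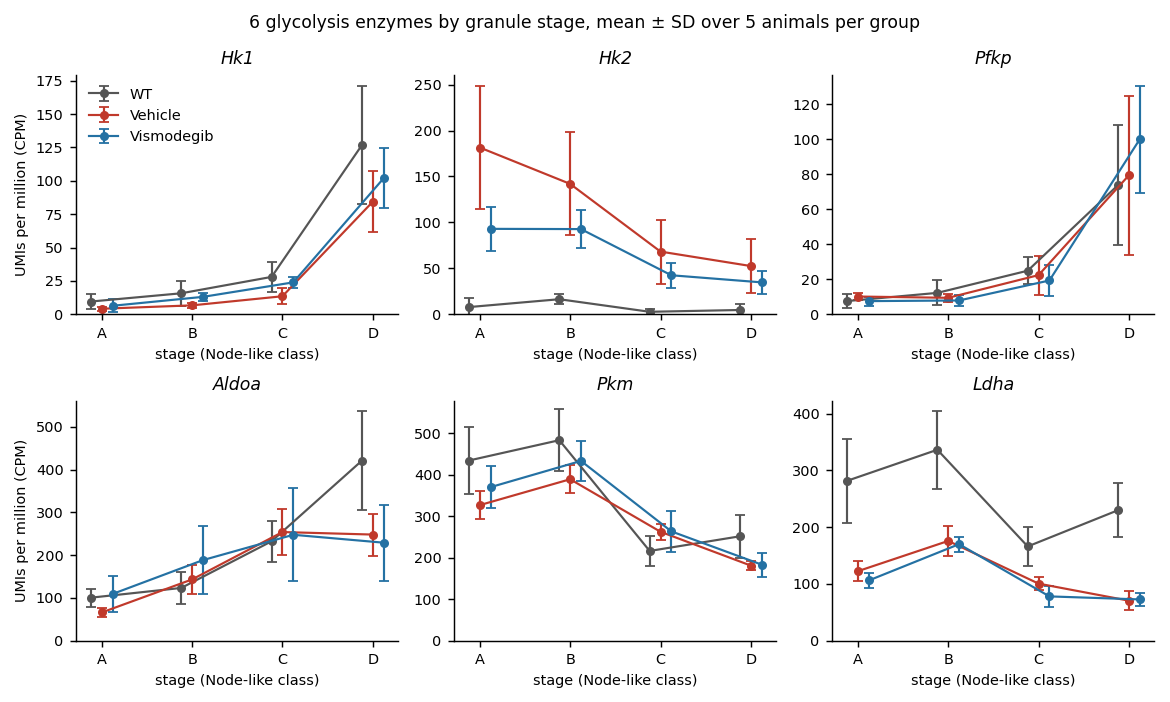
Level in CPM (vertical axis) of 6 genes in the 4 granule stages (horizontal axis, Node A-like to Node D-like), with points at the mean and bars of ± SD over 5 animals per group. Hk1, Pfkp and Aldoa stand higher in Node D-like than in Node A-like cells in all 3 groups, Hk2 stands lower in later stages of both tumor groups, and Ldha of WT lies above both tumor groups at every stage.

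Within stages, Hk2 rose between WT and vehicle-treated tumors at each stage where it passed the count filter of edgeR. In Node A-like cells WT replicates 1 to 5 had 24.9, 2.63, 0.0, 9.10 and 2.33 CPM, where the 0 of replicate 3 is of 228282 UMIs, and vehicle-treated tumors had 132.2 to 265.6 CPM. Hk2 rose by 3.76 (SE 0.40), 2.92 (SE 0.30) and 3.97 (SE 0.50) on the log2 scale in the first 3 stages, with edgeR adjusted p-values of 8.21e-07, 1.05e-06 and 7e-06. It did not pass that filter in Node D-like cells, where WT animals had 0.0 to 15.5 CPM and vehicle-treated tumors 23.0 to 99.7 CPM. DESeq2, run with low counts included, called Hk2 there (log2 2.96, adjusted p = 0.00106). Ldha fell at each stage, by 1.31, 1.10, 0.86 and 1.83 on the log2 scale from first to last stage, with an edgeR adjusted p of at most 0.000605. Gpi1 fell at each stage too, by 0.62, 0.57, 0.88 and 1.03.

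In Node A-like cells 5 of 6 tested members were called between vehicle-treated tumors and WT (1 rose, 4 fell), beside 35.7% of all tested genes. Counts were 6 of 8 in Node B-like cells beside 34.8%, 4 of 7 in Node C-like cells beside 33.2% and 4 of 6 in Node D-like cells beside 28.1%. Hk1 fell in Node B-like and Node C-like cells, by 1.38 (edgeR, adjusted p = 0.00965) and 1.19 (edgeR, adjusted p = 0.0137), and did not pass the filter of edgeR in Node A-like cells, where DESeq2 called it (log2 -1.46, adjusted p = 0.0248). These calls were lost without WT replicate 2 in Node B-like cells and without WT replicate 4 in Node C-like cells, where the adjusted p of edgeR was 0.059 and 0.0544, and in 5 of the 10 fits of Node B-like cells without 1 animal Hk1 did not pass the filter and was not tested. At a resolution of 1.2 Hk1 differed by -0.55 in Node C-like cells (edgeR, adjusted p = 0.185). Likewise, calls were lost for Pgk1 of Node B-like cells without WT replicate 3 (edgeR, adjusted p = 0.172), for Pkm of Node B-like cells without WT replicate 2 or 3 or vehicle replicate 1 (edgeR, adjusted p of up to 0.0826) and for Pkm of Node D-like cells without WT replicate 2 (edgeR, adjusted p = 0.0591). At a resolution of 1.2, where Calb2-led clusters could be left out, Node D-like cells had 2 called members without these clusters, since Ldha fell by 1.53 (edgeR, adjusted p = 4.3e-05) and Aldoa by 0.84 (edgeR, adjusted p = 0.00876), while Gpi1 differed by -0.74 (edgeR, adjusted p = 0.0889) and Pkm by -0.44 (edgeR, adjusted p = 0.138). Under the first naming rule WT had no Node D-like cells to test.

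With scaling by library totals alone the balance of all genes moved, from 2675 higher and 2934 lower calls to 3110 and 2631 in all CGNP-like cells, from 1581 and 1641 to 1943 and 1417 at Node A, from 1588 higher and 1822 lower calls to 2329 and 1413 at Node B, from 1365 and 1554 to 1973 and 1225 at Node C and from 725 and 828 to 991 and 659 at Node D. Under that scaling the median of all genes went from 0.05 to 0.21 in Node B-like cells, Hk2 still rose and Ldha and Gpi1 still fell in every stage where they had been called, and Pkm was no longer called in Node B-like and Node D-like cells.

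Aldoa, Pkm and Ldha differed between stages in how far vehicle-treated tumors stood from WT. The difference in Node C-like cells minus that in Node A-like cells was 0.64 for Aldoa (SE 0.14, edgeR, adjusted p = 0.0013), 0.57 for Pkm (SE 0.12, edgeR, adjusted p = 0.000396) and 0.44 for Ldha (SE 0.14, edgeR, adjusted p = 0.0276), 3 of 8 tested members beside 9.33% of all tested genes. Pkm fell by 0.51 in Node A-like cells and differed by 0.11 in Node C-like cells. All 3 calls were lost when tumor cells took the stage of their nearest WT cells, with differences of 0.29, 0.19 and -0.07. The Ldha call was also lost in 6 of 10 fits without 1 animal (WT 2 to 4, vehicle 3 to 5), where the adjusted p of edgeR reached 0.114.

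Between vehicle- and vismodegib-treated tumors few members passed the test within a stage. In Node A-like cells Hk2 was at 243.1, 132.2, 265.6, 134.6 and 132.2 CPM in vehicle replicates 1 to 5 and at 93.0, 134.2, 72.8, 85.6 and 79.2 CPM in vismodegib replicates 1 to 5. The groups overlapped only through vismodegib replicate 2. Hk2 fell by 0.95 on the log2 scale (SE 0.23, edgeR, adjusted p = 0.0395), 1 of 8 tested members beside 2.01% of all tested genes. The call was lost in 6 of 10 fits that left out 1 animal (vehicle 1 and 3, vismodegib 1, 3, 4 and 5), with an adjusted p of up to 0.122 in edgeR, and with scaling by library totals alone (edgeR, adjusted p = 0.0502).

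In Node B-like cells 0 of 9 tested members were called, beside 3.65% of all tested genes, and 3 had an unadjusted edgeR p under 0.05. In Node C-like cells the count was 0 of 9 beside 1.66% with 3 at that unadjusted level, and in Node D-like cells 0 of 7 beside 0.459% with 0. Hk2 differed by -0.58 (SE 0.23), -0.65 (SE 0.29) and -0.53 (SE 0.32) and Hk1 by 1.02 (SE 0.30), 0.82 (SE 0.29) and 0.33 (SE 0.22) in these 3 stages. DESeq2 called Hk1 in Node B-like cells (adjusted p = 0.0479) and 0 members in the other 2 stages. Pfkp, called in the pooled cells, differed by -0.45, -0.21, -0.08 and 0.35 over the 4 stages in order, none past the threshold.

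Each stage was then given equal weight in each animal, and the mean log2 level (log2 of CPM + 1) was compared by a 2-sided exact permutation test over 5 against 5 animals, unadjusted, for which the smallest possible p is 0.00794. Hk2 differed by -0.64 between vismodegib- and vehicle-treated tumors (exact permutation p = 0.0476), Hk1 by 0.53 (exact permutation p = 0.103) and Pfkp by -0.10 (exact permutation p = 0.746). Between vehicle-treated tumors and WT, Hk2 differed by 4.15, Gpi1 by -0.61 and Ldha by -1.12 (exact permutation p = 0.00794 each), and Hk1 by -0.79 (exact permutation p = 0.0159). By the same test and scale with all CGNP-like cells pooled, Hk1 differed by 1.61 with vismodegib (exact permutation p = 0.00794), Pfkp by 1.03 and Hk2 by -0.95 (exact permutation p = 0.0159 each) and Ldha by -0.33 (exact permutation p = 0.0397). In the pooled cells Node D-like cells were more frequent after vismodegib.

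Aldoa differed between stages in its response. The difference between vismodegib- and vehicle-treated tumors was 0.77 (SE 0.24) in Node A-like and -0.01 (SE 0.27) in Node C-like cells, and neither passed the threshold. The difference between these values, from a fit of both stages, was -0.72 (SE 0.12, edgeR, adjusted p = 0.000376), 1 of 9 tested members beside 2.93% of all tested genes. Aldoa in Node A-like cells was at 51.0 to 78.3 CPM with vehicle and at 52.5, 73.8, 131.8, 147.5 and 139.7 CPM in vismodegib replicates 1 to 5. Vismodegib replicates 3 to 5 stood above all vehicle-treated tumors and replicates 1 and 2 within their range. With sums thinned to the lowest total the difference between stages was -0.54 (edgeR, adjusted p = 0.197).

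The share of hexokinase UMIs that came from Hk2 does not depend on how libraries are scaled, and each molecule is counted at its 3′ end whatever its length. Hk2 made up 40.1, 14.8, 16.7, 26.3 and 18.8% of Hk1 and Hk2 UMIs in CGNP-like cells of WT replicates 1 to 5. It made up 94.7, 89.6, 92.7, 81.8 and 92.5% in vehicle replicates and 74.9, 70.4, 64.3, 52.4 and 43.5% in vismodegib replicates 1 to 5. The 3 groups did not overlap. The share was 66.9 percentage points higher in vehicle-treated tumors than in WT and 29.2 points lower in vismodegib- than in vehicle-treated tumors (exact permutation p = 0.00794 for each, n = 5 per group). With labels permuted within the library-number sets the p of the treatment difference was 0.0167 (exact permutation), the smallest these sets allow.

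From the earliest to the latest stage, the Hk2 share in vehicle-treated tumors was 97.5 ± 1.28, 95.1 ± 2.14, 81.6 ± 9.69 and 37.3 ± 15.5% (SD, n = 5 each). In vismodegib-treated tumors it was 93.1 ± 5.84, 87.1 ± 5.12, 63.2 ± 8.05 and 25.2 ± 6.77%. Over the mean of the 4 stages the treatment difference was -10.7 points (exact permutation p = 0.0238). In WT cells the share was 52.9 ± 15.3% in Node B-like and 4.46 ± 6.30% in Node D-like cells.

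Aldolase showed a smaller shift. Aldoc made up 4.35 ± 1.21% of aldolase UMIs in WT, 5.15 ± 2.74% in vehicle-treated and 8.46 ± 1.14% in vismodegib-treated CGNP-like cells (SD, n = 5). The treatment difference of 3.31 points had an exact permutation p of 0.0397, which rose to between 0.0635 and 0.0794 without any animal but vehicle replicate 5 and was 0.159 over the mean of the 4 stages. Vehicle-treated tumors and WT differed by 0.80 points (exact permutation p = 0.603).

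**Figure D4:**
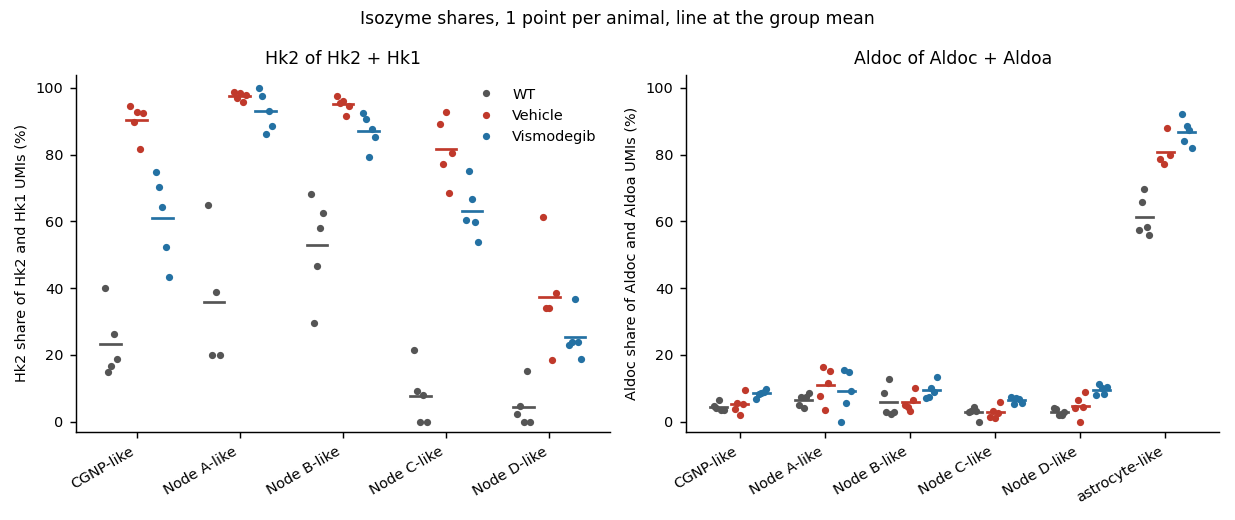
Hk2 as a percent of Hk2 and Hk1 UMIs (left) and Aldoc as a percent of Aldoc and Aldoa UMIs (right), with 1 point per animal and a line at the mean of each group. In all CGNP-like cells the Hk2 share lies between 14.8 and 40.1% in WT, between 81.8 and 94.7% with vehicle and between 43.5 and 74.9% with vismodegib, and the Aldoc share is 55.8% or more in astrocyte-like cells of every animal drawn.

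Hexokinase isozymes were also measured in classes outside the 4 stages. Hk2 was at 184.7 ± 81.0, 120.7 ± 40.4 and 118.1 ± 49.3 CPM in microglia-like cells of vismodegib-treated, vehicle-treated and WT samples (SD, n = 5, 4 and 4), and these ranges overlapped with that of Node A-like cells of vehicle-treated tumors. Hk1 was highest in neuron-like cells of tumors, 1 cluster of 339 cells led by Gabra6 and Cbln3, genes of mature granule neurons, at 190.4 ± 65.6 CPM with vismodegib and 166.7 ± 108.0 CPM with vehicle (n = 4 each), overlapping with Node D-like cells of WT. The vehicle value rests on 5, 3, 1 and 8 UMIs of Hk1 in replicates 1, 2, 4 and 5. Hk2 had 0 of 119033 UMIs in neuron-like cells of 4 vehicle-treated tumors, which allows a level of up to 25.2 CPM (3 counts over the group, counting error only). In 4 vismodegib-treated tumors it had 3 of 450135 UMIs in these cells.

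Aldoc was high in astrocyte-like cells. There it was at 710.0, 932.9, 748.4, 624.7 and 342.5 CPM in WT replicates 1 to 5, against a mean of 148.0 CPM in neuron-like cells of vehicle-treated tumors, the next highest class. Vehicle replicates 1, 2, 4 and 5 had 706.2, 2186, 2727 and 2058 CPM. Only vehicle replicate 1, with 19 astrocyte-like cells, lay within the WT range, and replicate 3, with 7 such cells, was not fitted. Aldoc rose by 1.56 on the log2 scale between WT and vehicle-treated astrocyte-like cells (SE 0.29, edgeR, adjusted p = 0.000282), 1 of 5 tested members beside 22.5% of all tested genes. This count is near the share of all genes. Vismodegib-treated replicates had 1989 to 3456 CPM (log2 0.47 against vehicle, SE 0.31, edgeR, adjusted p = 0.494), with 0 of 5 members called beside 1.26% of all tested genes and 0 at an unadjusted p under 0.05 or by DESeq2.

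Astrocyte-like cells of the tumors included cells with genes of other types. Muscle genes (Tnnc2, Mylpf, Myh3 and Acta1) summed to 2871 CPM in vehicle replicate 2 and 1981 CPM in vismodegib replicate 5, and to at most 110.1 CPM elsewhere. Ttr, a choroid plexus gene, was at 13900 CPM in vismodegib replicate 3 and 6828 CPM in replicate 5, and at most 172.4 CPM elsewhere. Leaving out any 1 animal gave Aldoc differences of 1.37 to 1.80 between vehicle-treated and WT astrocyte-like cells, and clustering at a resolution of 1.2 gave 2.11 (edgeR, adjusted p = 1.88e-07). At that resolution 379 tumor cells were named astrocyte-like in place of 656. A cluster of 483 tumor cells led by Tnnc2 and Ttr was named choroid plexus-like there.

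Oligodendrocyte- and microglia-like cells had less Ldha in tumors than in WT. In oligodendrocyte-like cells Ldha was at 428.2 to 654.6 CPM in WT and 77.1 to 179.6 CPM in vehicle-treated samples, and it fell by 2.17 on the log2 scale (SE 0.23, edgeR, adjusted p = 1.06e-06). Pkm fell by 0.65 (edgeR, adjusted p = 0.0136) and Aldoa by 0.89 (edgeR, adjusted p = 0.0092), so that 3 of 3 tested members were called beside 26.7% of all tested genes. In microglia-like cells Ldha was at 428.4 to 1094 CPM in WT and 117.6 to 313.4 CPM in vehicle-treated samples (log2 -1.69, SE 0.33, edgeR, adjusted p = 0.000916). Pkm fell there by 0.99 (edgeR, adjusted p = 0.0299), a call lost in 5 of 8 fits without 1 animal (WT 2 and 3, vehicle 2, 4 and 5), and 2 of 3 tested members were called beside 20.6%. WT replicate 5 and vehicle replicate 3 had under 10 microglia-like cells and were not fitted. Of dissociation and stress genes, 4 of 4 tested were called in oligodendrocyte-like and 2 of 7 in microglia-like cells, beside the same shares of all genes. Their part in the members' values was not tested.

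Vismodegib changed no member past the threshold in these cells. In oligodendrocyte-like cells 0 of 4 tested members were called beside 3.91% of all tested genes, with 1 (Aldoa, log2 0.68, SE 0.30) at an unadjusted edgeR p under 0.05. In microglia-like cells 0 of 4 were called beside 0.108%, with 0 at that level. DESeq2 called 0 members in either class. Vismodegib replicate 3 had 8 oligodendrocyte-like cells and was not fitted. With library totals alone all genes of oligodendrocyte-like cells split into 61 higher and 67 lower calls between treatments, and into 420 and 264 between vehicle-treated and WT samples.

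**Figure D5:**
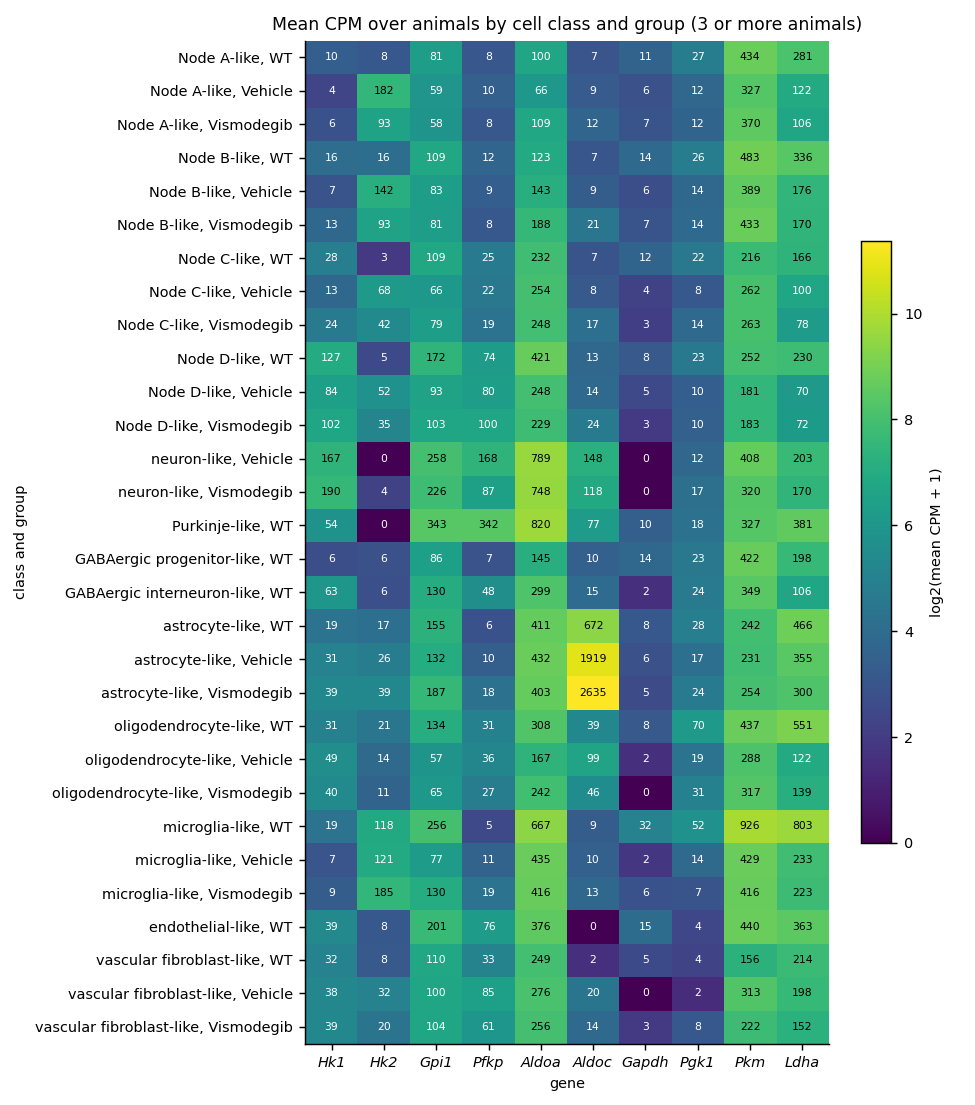
Mean CPM over animals (numbers, colored by log2 of the mean CPM plus 1) of the 10 genes (columns) in 30 combinations of cell class and group (rows) with 3 or more animals. Aldoc stands at 671.7 to 2635 CPM in astrocyte-like cells and at 148.0 CPM or less elsewhere, Hk2 is high in microglia-like cells and in Node A-like and Node B-like tumor cells, and Pkm and Ldha are highest in WT microglia-like cells.

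Across these 30 means, Hk1 and Pfkp varied alike (Pearson r of log2 CPM + 10, 0.80) and so did Gpi1 and Aldoa (0.83), while Hk1 and Hk2 ran opposite (-0.60). Among 4429 genes outside the pathway lists with a mean of at least 50 CPM, the gene most like each member was Meg3 for Hk1 (0.91), Pabpc1 for Hk2 (0.82), Higd2a for Gpi1 (0.80), Ywhab for Pfkp (0.85), Prdx5 for Aldoa (0.87), Mt3 for Aldoc (0.96), Rpl10a for Gapdh (0.80), Atg3 for Pgk1 (0.81), Cox17 for Pkm (0.71) and Rpn1 for Ldha (0.75). These are descriptions over class means that share animals and libraries. Meg3, a neuronal long noncoding RNA, is also among the markers of neuron-like cells, and Mt3 is a metallothionein of the brain.

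Of 18 other glycolytic genes listed and present in the tables, 9 were tested in CGNP-like cells, and 1 rose and 6 fell between WT and vehicle-treated samples, beside 21.3% and 23.3% of all tested genes. Tpi1, triose phosphate isomerase, fell by 2.08 (SE 0.12, edgeR, adjusted p = 2e-08), Eno2, the neuronal enolase, by 1.94 (SE 0.36, edgeR, adjusted p = 0.000483) and Pgam1, a phosphoglycerate mutase, by 1.32 (SE 0.39, edgeR, adjusted p = 0.0121). With vismodegib 3 of 9 rose and 0 fell, beside 8.4% and 4.65% of all tested genes, namely Eno2 by 2.15 (SE 0.45, edgeR, adjusted p = 0.00653), Tpi1 by 0.88 (SE 0.17, edgeR, adjusted p = 0.00344) and Pfkm, the muscle-type phosphofructokinase, by 0.84 (SE 0.15, edgeR, adjusted p = 0.0025). The median log2 difference of these 9 was -0.53 between WT and vehicle-treated samples, beside 0.05 over all genes, and 0.31 between treatments, beside 0.00. Within stages, Tpi1 alone was called with vismodegib, at 0.79 in Node B-like cells (edgeR, adjusted p = 0.015), 1 of 7 tested beside 3.65% of all genes. In Node A-like, Node C-like and Node D-like cells 0 of 6 were called, beside 2.01%, 1.66% and 0.459%. At an unadjusted edgeR p under 0.05 each stage had 1. DESeq2 called Tpi1 in Node A-like and Node B-like cells. Eno2 and Pfkm were called at no stage.

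Transporters of glucose and lactate changed in both directions. Of 5 tested, Slc2a1, the glucose transporter GLUT1, rose by 1.52 (edgeR, adjusted p = 0.0132) and Slc2a3, the neuronal GLUT3, by 0.80 (edgeR, adjusted p = 0.0328) in vehicle-treated tumors, while Slc16a1, the monocarboxylate transporter MCT1, fell by 0.60 (edgeR, adjusted p = 0.0298). Counts of this and the next 3 lists stand beside 21.3% of all tested genes that rose and 23.3% that fell. Of 12 tested regulators of pyruvate entry and glycolytic flux 0 rose and 3 fell, a share of fallen genes near that of all genes, with Mpc1, a subunit of the mitochondrial pyruvate carrier, at -2.22 on the log2 scale (edgeR, adjusted p = 1.45e-06), Pdk1, a pyruvate dehydrogenase kinase, at -1.29 (edgeR, adjusted p = 0.00891) and Pdha1, a subunit of that dehydrogenase, at -0.38 (edgeR, adjusted p = 0.032). Of 7 tested genes of the pentose phosphate pathway, G6pdx, its first enzyme, rose by 0.55, and Tkt (-0.75) and Taldo1 (-0.45), enzymes of its non-oxidative branch, fell, counts near the shares of all genes. DESeq2 called G6pdx, Rpia and Tkt of that list. Within stages Tkt and Taldo1 fell in each stage and 0 genes of that list rose. Mpc1 was the only regulator called at any stage. Of transporters Slc2a3 rose in Node B-like and Bsg fell in Node D-like cells, and Slc2a1 was called at no stage. Of 10 tested hypoxia-response genes outside glycolysis 2 rose, Vegfa by 1.07 and Egln1 by 1.00, and 4 fell, with the largest change in Bnip3 (-1.53). In none of these 4 lists did a gene pass the threshold between vismodegib- and vehicle-treated CGNP-like cells (8.4% of all tested genes rose and 4.65% fell), with 5, 12, 7 and 9 genes tested by edgeR. At an unadjusted p under 0.05 the counts were 1, 1, 0 and 1, and DESeq2 called 0.

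Genes on the opposite strand overlap Pfkp (Pitrm1, 3477 UMIs in kept cells beside 2186 of Pfkp), Aldoa (Fam57b, 8641 beside 17435), Gpi1 (Gm26762, 41 beside 6968) and Gapdh (Iffo1, 1952 beside 450). No source used here states the strand setting of the counting, so reads of these pairs may not be told apart.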

How the data were processed

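Drop-seq libraries of 15 mice were analysed as deposited, with 1 digital expression matrix (genes by barcodes, UMI counts) for each animal. According to the labels and the study's methods, the authors made these counts with Drop-seq tools and STAR against mm10 with Cre and SmoM2/EYFP sequences added, and tumors were aligned to a mixed mm10 and hg19 reference because human cells had been spiked in. Annotation version and counting strand are not stated in the sources at hand. Barcodes under 500 genes or 500 UMIs were dropped, as were those over the median by more than 5 SD in UMIs, genes or mitochondrial share. No doublet caller was run. Cells were clustered at a resolution of 0.8 (igraph 0.11.9, scikit-learn 1.9.0, Python 3.11), separately for WT and tumors, with 72 genes held out (the members and metabolic lists), and named from marker lists. The naming rule was altered once after clusters were seen, so that hemoglobin genes name no cluster and unipolar brush markers count with those of Node D-like cells. The first change moved 1 tumor cluster of 1597 cells to Node D-like and 1 WT cluster of 942 cells to Node B-like (both first red blood-like). The second change moved 1 tumor cluster of 1765 cells (first neuron-like) and 1 WT cluster of 854 cells (first unipolar brush-like) to Node D-like. Counts were summed per animal and class (at least 10 cells, at least 3 animals per group) and tested with edgeR 4.0.16 (TMM, quasi-likelihood, filterByExpr, R 4.3.3) in the comparisons vehicle against WT and vismodegib against vehicle. DESeq2 1.42.0 was an alternative. Summed UMIs of CGNP-like cells were 1055858 to 3209825 per WT animal, 4019607 to 15372169 with vehicle and 2107204 to 8775824 with vismodegib. Scripts were tested on simulated data. All 10 members are named, and in other lists the genes of largest change among those called, up to 3 per list. For each member the gene outside the lists most like it over class means is named as well, and Gli1 as a check of the treatment. The members and lists were chosen with earlier results of these data known.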

Additional observations from a re-analysis of the deposited data

Results flagged for a closer look

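Among 36 groups of 5 animals (levels and isozyme shares of CGNP-like cells), 2 held a value far from the other 4 by Dixon's criterion, which chance alone passes in about 1 of 20 groups. Aldoa was at 265.1 CPM in WT replicate 2, and Pgk1 at 55.88 CPM in WT replicate 3.

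For 4 results the difference between groups itself differed between Node C-like and Node A-like cells in a fit of both stages. These were Aldoa between vismodegib and vehicle (-0.722 on the log2 scale) and, between vehicle and WT, Aldoa (0.636), Pkm (0.566) and Ldha (0.437). With clustering at a resolution of 1.2 they were -0.82, 0.50, 0.28 and 0.01, and with sums thinned to the lowest total -0.54, 0.54, 0.56 and 0.12.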

How the results depend on the processing

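Hk2 against WT and Ldha against WT kept direction and call in pooled CGNP-like cells under DESeq2, its size factors, library totals and leaving out any animal. The clustering of all 15 animals named clusters of 3322 and 2904 cells GABAergic progenitor-like and GABAergic interneuron-like. With WT clustered alone these classes had 457 and 629 cells. Most WT cells named CGNP-like when clustered alone took other names there. The stages compared between WT and tumors come from separate clusterings and marker lists. With the clustering of all 15 animals Ldha was not called (-0.755, edgeR, adjusted p = 0.104). Hk2 was, but it had 0 of 172879 UMIs in WT there, which allows up to 17.35 CPM (3 counts over the group) beside 116.2 CPM with vehicle, so its fitted fold is not given. The first naming rule, the settings without hemoglobin-led or Calb2-led clusters, the nearest-WT stages, the moved vehicle replicate 2, the permutation test of pooled cells and the added rows of copies were chosen after seeing the data. Over single genes 1036 values kept direction and call, 79 lost the call, 4 gained it and 24 turned sign, and the cause was not tested.

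Between vismodegib and vehicle, equal stage weights gave 1 member at an unadjusted exact permutation p under 0.05, where the same test of pooled cells gave 4 and edgeR called 3. Node A-like cells had 1 called member, but 0 with library totals, 2 with no filter and 2 with vehicle replicate 2 moved between library-number sets. Node B-like cells had 0, but 1 with DESeq2, 1 with these sets as covariate and 4 with that animal moved. All genes of Node B-like cells had 130 higher and 242 lower calls, 264 and 359 with the covariate and 331 and 435 with that animal moved. The difference between stages had 0 calls with thinned sums and 2 at a resolution of 1.2, with or without Calb2-led clusters, in place of 1. Between vehicle and WT, a clustering of all 15 animals gave 1 called member in place of 6. All genes had 614 higher and 222 lower calls of 11938 tested there, in place of 2675 and 2934 of 12588. That clustering left 7 to 65 WT CGNP-like cells per animal and no stages to test, and there Pkm was at 0.62. Fitted values of 7.31 for Gapdh and 1.301 for Pgk1 there stand over 0 and 1 UMIs in WT and give neither a size nor a direction, since 3 counts in WT would be 17.35 CPM, above the vehicle level of both (4.976 and 13.55 CPM). Node A-like cells had 3 in place of 5 with no filter, Node C-like cells 1 in place of 4 with thinned sums, and Node D-like cells 1 in place of 4 with nearest-WT stages and 2 at a resolution of 1.2 without Calb2-led clusters. The difference between stages had 1 call with thinned sums, 1 at a resolution of 1.2, with or without Calb2-led clusters, and 0 with nearest-WT stages (Ldha -0.065), in place of 3. The Aldoc share differed by 2.573 points over the mean of stages and 2.767 under the first naming (vismodegib against vehicle) and by 5.464 with the joint clustering (vehicle against WT), which is the vehicle share alone, since WT held 0 UMIs of Aldoc beside 42 of Aldoa there.

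Signs turned for Gapdh (0.028) with vismodegib and Pfkp (0.103) against WT under the first naming, and for Pfkp against WT (0.012) without Calb2-led clusters. Pgk1 with vismodegib was at -0.004 with DESeq2, -0.057 with no filter and -0.016 thinned, and Aldoc against WT at -0.117 thinned. Replicate numbers did not pair the animals (correlations of deviations from -0.29 to 0.366 and from -0.382 to 0.141), and not every animal correlated best with its own number. With the replicate block Pgk1 with vismodegib was at -0.15 and Aldoc against WT at -0.079, called members were 3 with vismodegib and 5 against WT, and all genes had 997 higher and 551 lower calls in place of 1044 and 578, and 2221 and 2628 in place of 2675 and 2934. Against WT this block lost the calls of Pgk1 in CGNP-like and Node B-like cells and of Pkm in microglia-like cells. It gained a call of Pgk1 in Node A-like cells.

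Leaving out 1 animal gave Gapdh from -0.205 to 0.082 and Pgk1 from -0.295 to 0.231 with vismodegib, and Aldoc from -0.265 to 0.407 against WT. Aldoc share differences ran from 2.519 to 4.358 and from -0.2488 to 1.59 points, and called members in Node A-like cells with vismodegib from 0 to 1. Classes of few UMIs limit what could be tested, since 4 members failed the filter in Node D-like cells against WT and 7 in oligodendrocyte-like cells. Intervals and floors cover counting error only.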

Other observations

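Classes of WT cerebellum that entered no comparison differed in their levels of the members. Purkinje-like cells, from 3 WT animals, had 820.2 ± 154.0 CPM of Aldoa, 343.3 ± 22.1 CPM of Gpi1 and 341.9 ± 127.6 CPM of Pfkp (SD), the highest means of these genes among the 30 combinations of class and group, each overlapping in range with neuron-like cells of vehicle-treated tumors. Hk2 had 0 UMIs in these Purkinje-like cells. GABAergic progenitor-like cells had 421.9 ± 63.5 CPM of Pkm and 6.52 ± 7.31 CPM of Pfkp, and GABAergic interneuron-like cells 349.4 ± 55.3 CPM of Pkm and 48.1 ± 24.2 CPM of Pfkp (SD, n = 5 each).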
